A study of Mus musculus with 12 samples.

Results

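The 6 genes described here encode the membrane proteins that carry sugars, small peptides and monocarboxylates across the absorptive cells of the small intestine. They are Slc5a1, Slc2a2, Slc2a5, Slc15a1, Slc16a1 and Slc5a8, and the rule took every probe set annotated to exactly 1 of these symbols. It found 7 probe sets of 22626 tested, 2 for Slc5a1 and 1 for each other gene, and these 6 genes were among 12393 represented on the array. RNA came from scraped ileal epithelium of male C57BL/6 mice aged 6 to 8 weeks, on Affymetrix 430A arrays. The ileum was taken as the last of 3 equal parts of the small intestine. There were 4 groups of 3 arrays, and an array carried the pooled RNA of 3 animals. POR-null mice, which lack cytochrome P450 reductase (POR, the electron donor of microsomal P450 enzymes), received quercetin or the control diet, and so did wild-type mice. All animals had 14 days on the soya-free powdered RM3 diet. The quercetin groups then received this diet with the plant flavonol quercetin at 6.2 g per kg (7 mg per mouse), the control groups the same diet alone, and tissue was taken after 24 h. The tissues in which the reductase gene was deleted are not given in the sources used here. Its transcript is not analysed here, so the genotype labels were not checked on the arrays. Pooling hides the spread between single mice, and the p-values measure the spread between pools.

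Glucose and galactose enter the enterocyte from the gut lumen through SGLT1, the sodium-coupled cotransporter encoded by Slc5a1. Fructose enters through GLUT5, encoded by Slc2a5. Sugars leave towards the blood through the facilitative transporter GLUT2, encoded by Slc2a2. Slc15a1 encodes PEPT1, which takes up dipeptides and tripeptides with protons. MCT1, encoded by Slc16a1, moves lactate, butyrate and other monocarboxylates with protons and needs the chaperone basigin (Bsg) to reach the membrane. Slc5a8 encodes SMCT1, a sodium-coupled transporter of lactate and short-chain fatty acids found in the distal bowel. Sugar and peptide transporters of this kind are known for higher levels in the proximal than in the distal small intestine.

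The deposited values carried no stated scale and were taken as log2 from their range, and every difference and fold given here rests on that. Array medians lay between 5.91 and 5.96, and pairs of arrays correlated across probe sets with r from 0.9897 to 0.9956. Wild-type control replicate 2 stood apart on the first principal component (-25.57, against -10.80 to 10.56 for the other arrays). It also had the highest score for 7 proximal small intestinal genes, 0.99, where the other arrays had -0.54 to 0.25 (log2, mean of the genes after centring each over the arrays). Of the markers of the labelled tissue, the ileal bile acid binding protein gene Fabp6 stood at 12.42 and the enterocyte gene Fabp2 at 13.40 as means over 12 arrays, and the ileal genes Slc10a2 and Fgf15 at 6.58 and 6.63. All 5 enterocyte and all 6 ileal genes lay above the middle of the probe sets, but so did all 7 proximal genes and 5 of 6 colon genes, so these levels do not separate ileum from its neighbours. Smooth muscle genes were also detected in the scrapings, with Acta2 at 8.22.

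The 250 bases before the RefSeq transcription start (build GRCm38.p6) are shown for the 3 sugar transporters, whose levels moved together from pool to pool, and for Slc5a8, whose level differed most between the genotypes by the size of p. All 4 genes are on the plus strand, and each window is upstream of the first exon of its gene. Capitals mark matches to 2 short motifs, searched on both strands: the E-box CACGTG and the GC box GGGCGG.
Slc5a1, chr5:33103969-33104218: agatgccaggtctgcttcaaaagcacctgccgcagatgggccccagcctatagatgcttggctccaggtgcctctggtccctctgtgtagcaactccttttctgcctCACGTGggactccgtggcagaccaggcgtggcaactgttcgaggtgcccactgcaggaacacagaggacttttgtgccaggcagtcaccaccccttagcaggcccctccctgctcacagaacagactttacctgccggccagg
Slc2a2, chr3:28697653-28697902: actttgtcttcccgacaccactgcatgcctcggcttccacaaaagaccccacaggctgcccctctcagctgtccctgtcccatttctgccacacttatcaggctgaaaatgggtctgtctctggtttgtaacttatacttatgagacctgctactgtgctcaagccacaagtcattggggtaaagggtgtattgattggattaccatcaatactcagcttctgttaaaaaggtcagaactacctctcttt
Slc2a5, chr4:150119094-150119343: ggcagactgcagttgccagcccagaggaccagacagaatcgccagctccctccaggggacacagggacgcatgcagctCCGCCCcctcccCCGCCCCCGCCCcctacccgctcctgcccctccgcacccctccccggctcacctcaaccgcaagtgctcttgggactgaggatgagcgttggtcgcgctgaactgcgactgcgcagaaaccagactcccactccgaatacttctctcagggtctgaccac
Slc5a8, chr10:88885742-88885991: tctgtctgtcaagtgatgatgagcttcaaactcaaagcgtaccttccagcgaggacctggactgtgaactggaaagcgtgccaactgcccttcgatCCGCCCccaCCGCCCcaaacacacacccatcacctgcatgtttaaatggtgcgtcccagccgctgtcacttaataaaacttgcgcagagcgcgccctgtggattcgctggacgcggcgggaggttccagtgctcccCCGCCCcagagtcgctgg
The Slc5a1 window held 1 E-box, 143 bases before the start, a motif found in 6.02% of 32851 RefSeq promoter windows of this length. Slc2a5 and Slc5a8 each held 3 GC boxes, a motif found in 32.7% of all windows. The Slc2a2 window held neither and had 47.2% G and C, against 66.4% in Slc2a5 and a median of 52.4% over all windows. The windows of all 6 genes were also searched on both strands for 4 further motifs, with 0 matches. These were the HNF1 half-site, spelled GTTAAT and found in 6.43% of all windows, and the Cdx site, spelled TTTATG and found in 10.8%. The GATA factor site, spelled AGATAA, is in 9.99% of all windows and the usual TATA box, spelled TATAAA, in 12.4%. In the exact spellings searched, the 3 sugar transporters shared none of these 6 motifs. Other spellings of the same sites and sequence outside these windows were not searched, so a shared site is not excluded.

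Each comparison was tested with limma, a linear model fitted to all 22626 probe sets, with p-values adjusted over all of them by the Benjamini-Hochberg method and a threshold of 0.05. None of the 7 transporter probe sets passed in any of the 7 comparisons. The share of all probe sets that passed was 0.00442% (1 probe set) for quercetin in wild-type mice and 0% in the other 6 comparisons, so 0 of 7 is what the background gives. The smallest adjusted p of a transporter was 0.153. At an unadjusted p under 0.05, 0 of 7 were counted for quercetin in POR-null mice (6.65% of all probe sets) and 1 for quercetin in wild type (10.9%). For POR-null against wild type, 2 were counted on quercetin (7.01%), 1 on the control diet (10.1%) and 3 for the average over diets (7.12%). The interaction (10.3%) and the average quercetin effect (7.44%) had 0. All 7 of these counted differences were above 0. They came only from Slc5a8, Slc15a1 and the brighter Slc5a1 probe set, in comparisons that share arrays, so they are not independent. The values below are therefore differences that did not pass the test across all probe sets.

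**Figure D1:**
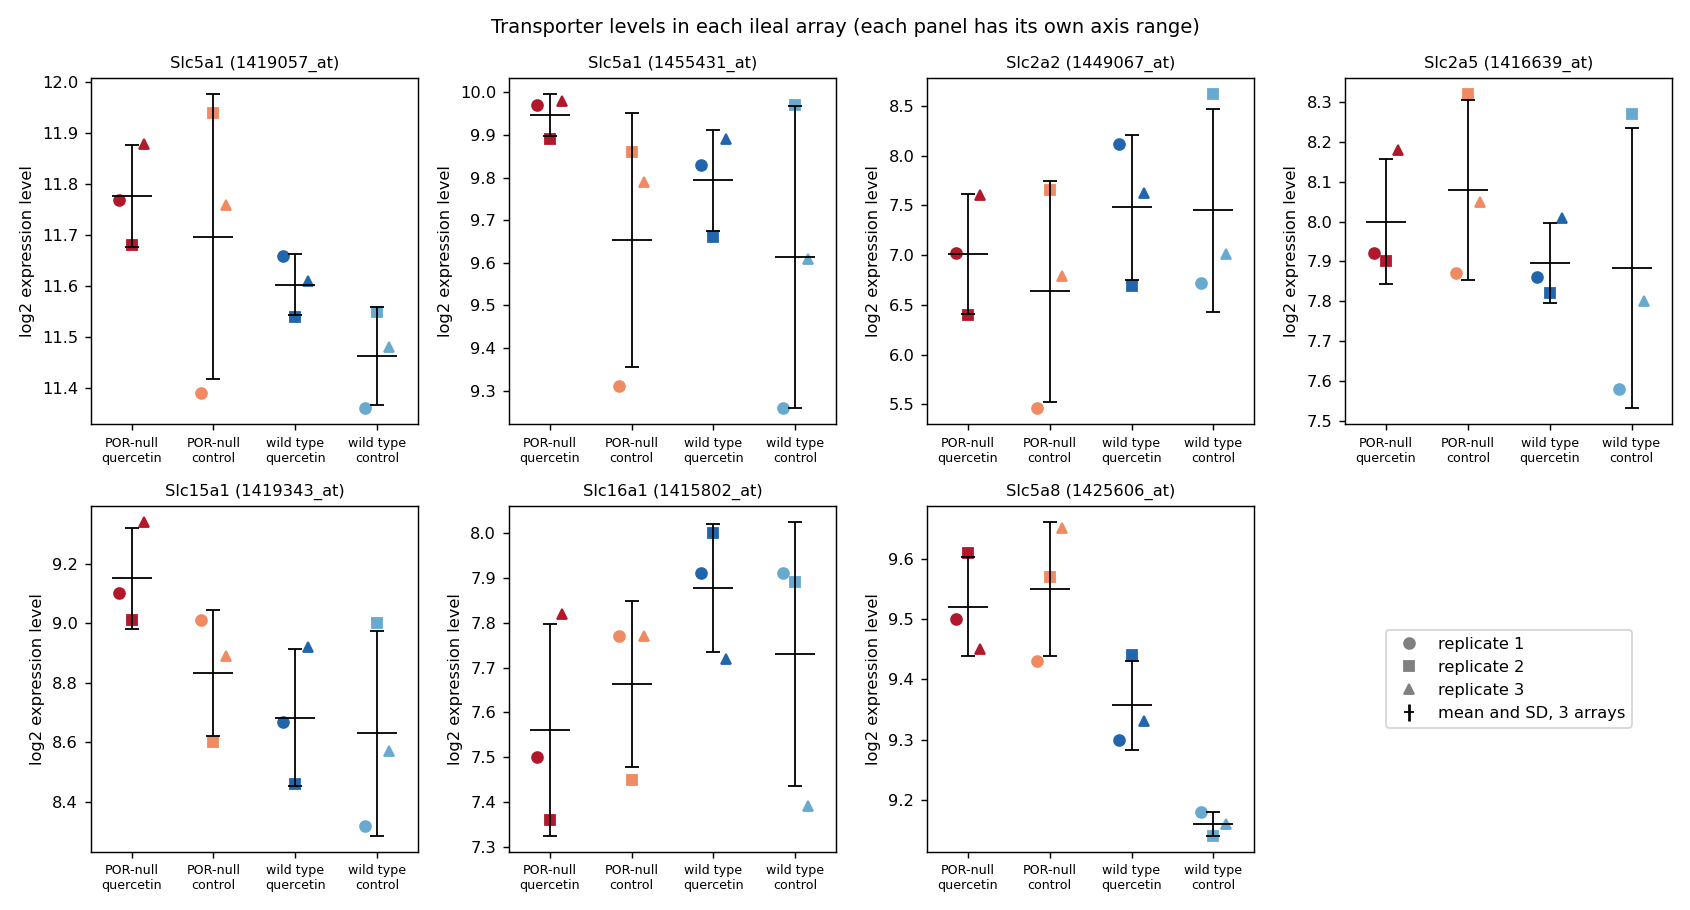
Log2 expression level of each transporter probe set in each array, by group, with the mean and SD of 3 arrays in black; the panels have separate axis ranges. Slc5a8 was between 9.43 and 9.65 in POR-null arrays and at 9.14 to 9.18 in wild-type controls, while Slc2a2 ranged from 5.46 to 8.62.

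Slc5a1, which brings glucose into the cell, varied by 0.58 over the 12 arrays by the brighter of its 2 probe sets, which represents it below. It had 11.77, 11.68 and 11.88 in POR-null mice on quercetin, against 11.39, 11.94 and 11.76 in POR-null controls. In wild-type mice it had 11.66, 11.54 and 11.61 on quercetin, against 11.36, 11.55 and 11.48 on the control diet. The 3 POR-null quercetin arrays lay above the 3 wild-type quercetin arrays, and the other pairs of groups compared overlapped. On the quercetin diet 7.28% of all probe sets showed such a separation on the higher side. The genotype difference was 0.17 ± 0.11 (log2, SE) on quercetin and 0.23 ± 0.11 on control (limma adjusted p = 0.782 and 0.507). Averaged over both diets it was 0.20, with a 95% interval from 0.03 to 0.38 (unadjusted p = 0.0255, limma adjusted p = 0.637). The second Slc5a1 probe set gave 0.10 for the same average, with an interval from -0.15 to 0.34. By that probe set the POR-null arrays on quercetin (9.97, 9.89 and 9.98) lay above the POR-null controls (9.31, 9.86 and 9.79), a separation shown by 7.45% of all probe sets in that comparison. The quercetin difference there was 0.29 ± 0.16 (limma adjusted p = 0.780), and 0.12 without POR-null control replicate 1. The brighter probe set gave 0.08 ± 0.11 for the same difference, and -0.07 without that array. The order of the group means was the same for both probe sets only at its ends, with POR-null on quercetin highest and wild-type control lowest, and no pair of neighbours in it differed beyond the test's threshold.

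The basolateral sugar transporter gene Slc2a2 had the widest spread of the 6 genes. Its levels were 7.02, 6.40 and 7.61 in POR-null mice on quercetin, against 5.46, 7.66 and 6.79 in POR-null controls. Wild-type mice had 8.12, 6.69 and 7.63 on quercetin, against 6.72, 8.62 and 7.01 on control. All 4 groups overlapped one another, and the distance from the lowest to the highest array, 3.16, was an 8.94-fold span. The residual SD within groups was 0.89, the 17th highest of 22626 probe sets, where the median was 0.11. The POR-null minus wild-type difference was -0.47 ± 0.56 on quercetin and -0.81 ± 0.56 on control (limma adjusted p = 0.893 and 0.639). The quercetin difference was 0.37 ± 0.56 in POR-null and 0.03 ± 0.56 in wild type. Its 95% interval in wild type ran from 0.44-fold to 2.36-fold, and these arrays do not exclude a difference inside those bounds. Without wild-type control replicate 2, the array with the highest Slc2a2 level, the wild-type quercetin difference was 0.62, and without wild-type control replicate 1 it was -0.34. Without POR-null control replicate 1, the lowest array, the POR-null quercetin difference was -0.22 and the control-diet genotype difference -0.23.

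Slc2a5, the fructose transporter gene, was at 7.92, 7.90 and 8.18 in POR-null mice on quercetin, against 7.87, 8.32 and 8.05 in POR-null controls. It was at 7.86, 7.82 and 8.01 in wild-type mice on quercetin, against 7.58, 8.27 and 7.80 in wild-type controls. Every pair of groups overlapped. The quercetin difference was -0.08 ± 0.15 in POR-null and 0.01 ± 0.15 in wild type (limma adjusted p = 0.949 and 0.984). The genotype difference was 0.10 ± 0.15 on quercetin and 0.20 ± 0.15 on control. Without wild-type control replicate 1 the control-diet value was 0.04, and without wild-type control replicate 2 it was 0.39. The quercetin-diet value was 0.01 without POR-null quercetin replicate 3. The intervals of the 4 differences over all arrays ran from 0.75-fold at the lowest to 1.44-fold at the highest.

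**Figure D2:**
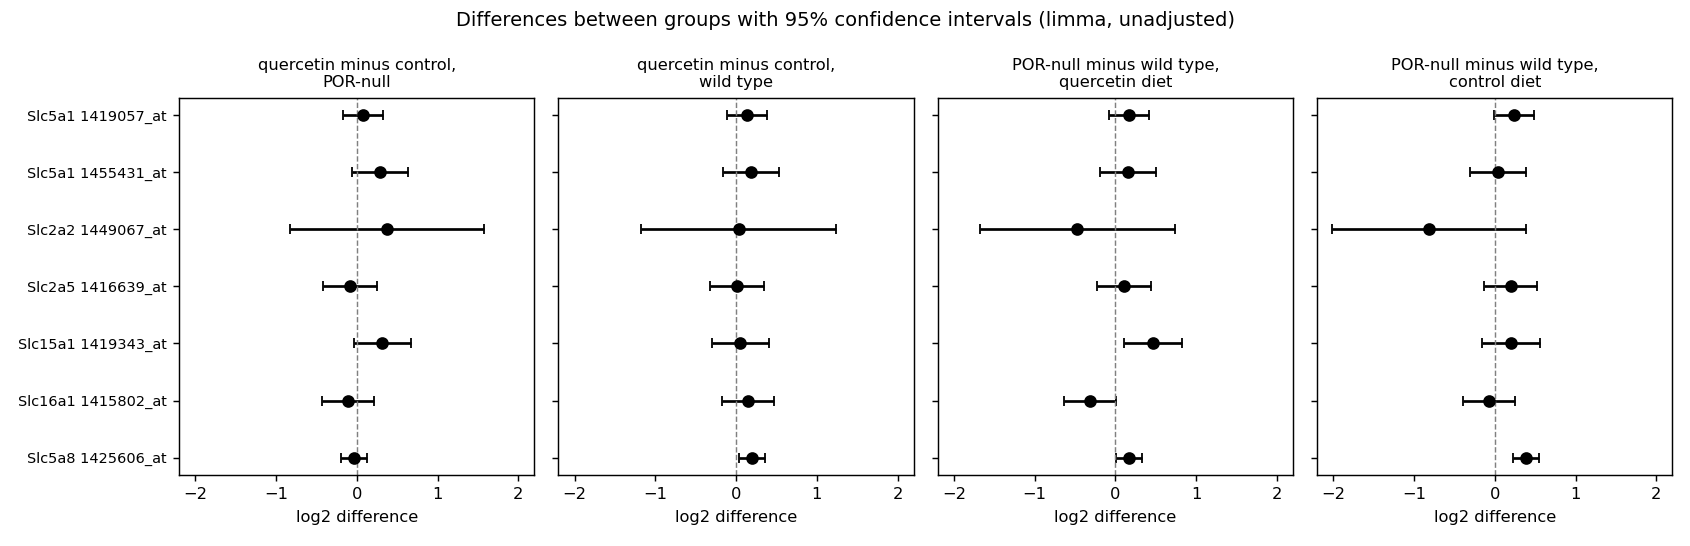
Log2 difference (points) with 95% confidence interval (bars) for each transporter probe set in 4 comparisons. The Slc2a2 intervals span more than those of the other probe sets, and the interval of Slc5a8 in POR-null against wild type on the control diet runs from 0.23 to 0.55.

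The 3 sugar transporter genes varied together between pools of the same group. After subtracting group means, Slc5a1 and Slc2a2 correlated over the 12 arrays with a Pearson r of 0.879 (exact permutation p = 0.000772 within groups, the smallest that 1296 permutations can give) and a Spearman rho of 0.909 (exact permutation p = 0.000772). Adjusted over the 27 relations computed, both p-values were 0.0208, and r was 0.880 without the 2 arrays farthest from the median of Slc5a1. Slc2a2 and Slc2a5 gave r = 0.871 (exact permutation p = 0.00463, adjusted 0.0625) and rho = 0.867 (exact permutation p = 0.00386, adjusted 0.0347), with r = 0.807 without the 2 farthest arrays. Slc5a1 and Slc2a5 gave r = 0.742 (exact permutation p = 0.0100, adjusted 0.0903) and rho = 0.888 (exact permutation p = 0.00309, adjusted 0.0347), with r = 0.750 without the 2 farthest. By Pearson's r, 1 of the 15 pairs of transporters passed after adjustment. Without wild-type control replicate 2 these 3 coefficients were 0.932, 0.811 and 0.859. The scale of the shared movement differed, since Slc2a2 spanned 3.16 over the 12 arrays and Slc5a1 spanned 0.58. The other 12 pairs had an exact permutation p of 0.0718 or more by Pearson's r. Among them, Slc5a1 and Slc15a1 gave r = 0.01 over 12 arrays, but 0.813 without POR-null control replicates 1 and 2. Slc15a1 and Slc5a8 ran in opposite directions (r = -0.530, exact permutation p = 0.0718, adjusted 0.323; rho = -0.586, exact permutation p = 0.0494, adjusted 0.267), with r = -0.618 without the 2 farthest arrays.

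**Figure D3:**
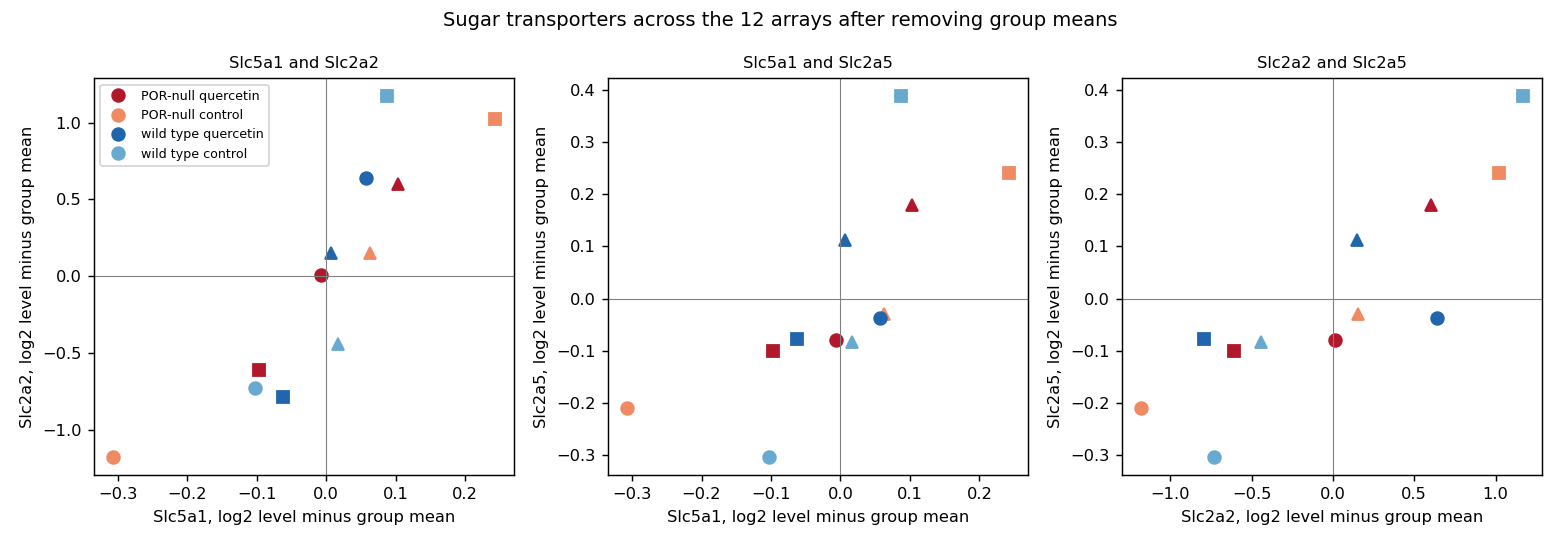
Log2 level minus group mean of Slc5a1, Slc2a2 and Slc2a5, plotted in pairs, 1 point per array, with circles, squares and triangles for replicates 1, 2 and 3. POR-null control replicate 1 lies at the low end of Slc5a1 and Slc2a2, and wild-type control replicate 2 at the high end of Slc2a2 and Slc2a5.

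The proximal intestinal score was compared with the transporter levels. Its 7 genes included lactase (Lct), adenosine deaminase (Ada) and the fatty acid binding protein Fabp1, and none of the 6 transporters. The score ranged from -0.03 to 0.25 in POR-null mice on quercetin and from -0.30 to -0.18 in POR-null controls. In wild-type mice it ranged from -0.54 to 0.22 on quercetin and from 0.00 to 0.99 on control. After subtracting group means, Slc2a2 correlated with it at r = 0.669 (exact permutation p = 0.0355, adjusted 0.240; rho = 0.657, exact permutation p = 0.0440, adjusted 0.267), and r was 0.420 without the 2 arrays farthest from the median score. Slc5a1 gave r = 0.277 with the proximal score (exact permutation p = 0.182, adjusted 0.546). Slc2a5 gave r = 0.557 (exact permutation p = 0.252, adjusted 0.599), and -0.06 without wild-type control replicate 2. Slc15a1 gave r = 0.55 (exact permutation p = 0.266, adjusted 0.599), and 0.07 without wild-type control replicate 2. Slc16a1 gave r = 0.229 (exact permutation p = 0.73, adjusted 0.944). For Slc5a8 the coefficient was negative, r = -0.397 (exact permutation p = 0.0494, adjusted 0.267). None of the 6 transporters passed after adjustment with that score. The smooth muscle and stroma score of 9 genes ranged from 0.15 to 0.59 in POR-null on quercetin and from -0.48 to 0.94 in POR-null controls. In wild type this second score ranged from -0.64 to 0.33 on quercetin and from -0.73 to -0.18 on control. All 9 of its genes had a higher mean in POR-null mice on both diets. So did 55.9% of all genes on quercetin and 43% on control. At an unadjusted p under 0.05, 2 of the 9 were counted on quercetin (7.01% of all probe sets) and 4 on control (10.1%). None passed after adjustment (smallest limma adjusted p = 0.666 and 0.435). The highest value of this score belonged to POR-null control replicate 1, the array with the lowest Slc2a2 and the second lowest Slc5a1. Slc5a1 correlated with this score at r = -0.669 (exact permutation p = 0.144, adjusted 0.484; rho = -0.441, exact permutation p = 0.265, adjusted 0.599), and r was -0.145 without the 2 arrays farthest from the median score. Slc2a2 gave r = -0.587 (exact permutation p = 0.143, adjusted 0.484; rho = -0.497, exact permutation p = 0.208, adjusted 0.596), and r was -0.263 without the 2 farthest arrays. Slc2a5 gave r = -0.321 (exact permutation p = 0.36, adjusted 0.698), and r was 0.07 without the 2 farthest arrays. Without wild-type control replicate 2 instead, r with this score was -0.745 for Slc5a1, -0.853 for Slc2a2 and -0.676 for Slc2a5. Over all 12 arrays Slc15a1, Slc16a1 and Slc5a8 gave r = 0.203, 0.236 and 0.077 with this score (exact permutation p = 0.57, 0.472 and 0.904). The part of either score in the transporter levels was not tested. In scraped tissue, fewer cells of a type and less RNA per cell cannot be told apart.

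Slc15a1, the peptide transporter gene, had its highest levels in POR-null mice on quercetin. It was at 9.10, 9.01 and 9.34 there, against 9.01, 8.60 and 8.89 in POR-null controls. Wild-type mice had 8.67, 8.46 and 8.92 on quercetin, against 8.32, 9.00 and 8.57 on control. All 3 POR-null arrays on quercetin lay above all 3 wild-type arrays on quercetin, as they did for 7.28% of all probe sets. The difference between those groups was 0.47 ± 0.16, or 1.38-fold with a 95% interval from 1.08 to 1.77 (unadjusted p = 0.0137, limma adjusted p = 0.612). On the control diet the genotype difference was 0.20 ± 0.16, with 0.05 without wild-type control replicate 1 and 0.39 without wild-type control replicate 2. The quercetin difference was 0.32 ± 0.16 in POR-null and 0.05 ± 0.16 in wild type (limma adjusted p = 0.771 and 0.929), and the difference between these was 0.26 ± 0.23 (limma adjusted p = 0.693). The average genotype effect was 0.34, with an interval from 0.08 to 0.59 (unadjusted p = 0.0126, limma adjusted p = 0.551).

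Of the monocarboxylate transporters, Slc16a1 was lower in POR-null mice by its means. It had 7.50, 7.36 and 7.82 in POR-null mice on quercetin, against 7.77, 7.45 and 7.77 in POR-null controls. It had 7.91, 8.00 and 7.72 in wild-type mice on quercetin, against 7.91, 7.89 and 7.39 in wild-type controls. The groups overlapped throughout. The genotype difference was -0.32 ± 0.15 on quercetin, with a 95% interval from -0.64 to 0.01 (limma adjusted p = 0.715), and -0.07 ± 0.15 on control (limma adjusted p = 0.899). The quercetin difference was -0.10 ± 0.15 in POR-null and 0.15 ± 0.15 in wild type. The last of these was -0.02 without wild-type control replicate 3, the lowest array of its group.

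Slc5a8 was the transporter whose arrays separated most by genotype. It was at 9.50, 9.61 and 9.45 in POR-null mice on quercetin, against 9.30, 9.44 and 9.33 in wild-type mice on quercetin. On the control diet it was at 9.43, 9.57 and 9.65 in POR-null mice, against 9.18, 9.14 and 9.16 in wild-type mice. The POR-null arrays lay above the wild-type arrays on each diet, which 7.28% of all probe sets did on quercetin, 5.15% on control and 0.34% on both. Over both diets together the groups touched, since the highest wild-type array (9.44, on quercetin) was above the lowest POR-null array (9.43, on control). On the control diet the difference was 0.39 ± 0.08, or 1.31-fold with a 95% interval from 1.17 to 1.47. It had the 12th smallest p of 22626 probe sets (unadjusted p = 0.000149) and a limma adjusted p of 0.209. On quercetin the difference was 0.16 ± 0.08 (limma adjusted p = 0.708). Averaged over the diets it was 0.28 ± 0.05 (unadjusted p = 0.000145, limma adjusted p = 0.153).

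For the response of Slc5a8 to quercetin, no difference between the genotypes passed the test. The wild-type quercetin arrays lay above the wild-type controls, as 5.33% of all probe sets did, with a difference of 0.20 ± 0.08 (unadjusted p = 0.0206, limma adjusted p = 0.371). In POR-null mice the groups overlapped, with a difference of -0.03 ± 0.08 (limma adjusted p = 0.963). The difference between these, -0.23 ± 0.11, had a 95% interval from -0.46 to 0.00 (limma adjusted p = 0.487). The wild-type quercetin comparison and the control-diet genotype comparison share the 3 wild-type control arrays, which were the lowest of the 12 for Slc5a8 and lay within 0.04 of each other. From low to high the group means ran from wild-type control (9.16 ± 0.02, SD, n = 3) through wild-type quercetin (9.36 ± 0.07) and POR-null quercetin (9.52 ± 0.08) to POR-null control (9.55 ± 0.11). No neighbours in that order passed limma's adjusted threshold. Beside these values, the smooth muscle and stroma score was higher in POR-null mice as given above, while 6 colon genes scored -0.29 to 0.28 in POR-null on quercetin and -0.20 to 0.17 in POR-null controls, against -0.27 to 0.69 in wild type on quercetin and -0.17 to 0.13 in wild-type controls. The score of 6 ileal genes was -0.32 to -0.09 in POR-null on quercetin and -0.27 to 0.20 in POR-null controls, against -0.04 to 0.40 in wild type on quercetin and -0.22 to 0.04 in wild-type controls. On quercetin 5 of these 6 genes were lower in POR-null, 4 of them at an unadjusted p under 0.05. Of all probe sets 7.01% reached that in either direction. No ileal gene passed after adjustment (smallest limma adjusted p = 0.181). The score of 4 B and plasma cell genes was -0.33 to 0.04 in POR-null on quercetin and -0.15 to 0.23 in POR-null controls, against 0.25 to 0.51 in wild type on quercetin and -0.44 to 0.11 in wild-type controls. At an unadjusted p under 0.05, 3 of these 4 genes were lower in POR-null on quercetin (smallest limma adjusted p = 0.132). For quercetin in wild type, 3 of the 4 were higher at that level, where 10.9% of all probe sets reached it in either direction. None of the 4 passed after adjustment there (smallest limma adjusted p = 0.0577). The part of these marker genes in the Slc5a8 values was not tested.

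Over the 7 probe sets, 4 were higher and 3 lower on quercetin in POR-null mice, and 7 were higher on quercetin in wild-type mice. By 1 probe set per gene, the median quercetin difference of the 6 genes was 0.03 in POR-null and 0.10 in wild type, beside medians of 0.02 and -0.02 over 12393 genes. For POR-null against wild type, 5 probe sets were higher and 2, Slc2a2 and Slc16a1, were lower on each diet. The median genotype difference of the 6 genes was 0.13 on quercetin and 0.20 on control, beside 0.02 and -0.02 over all genes.

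**Figure D4:**
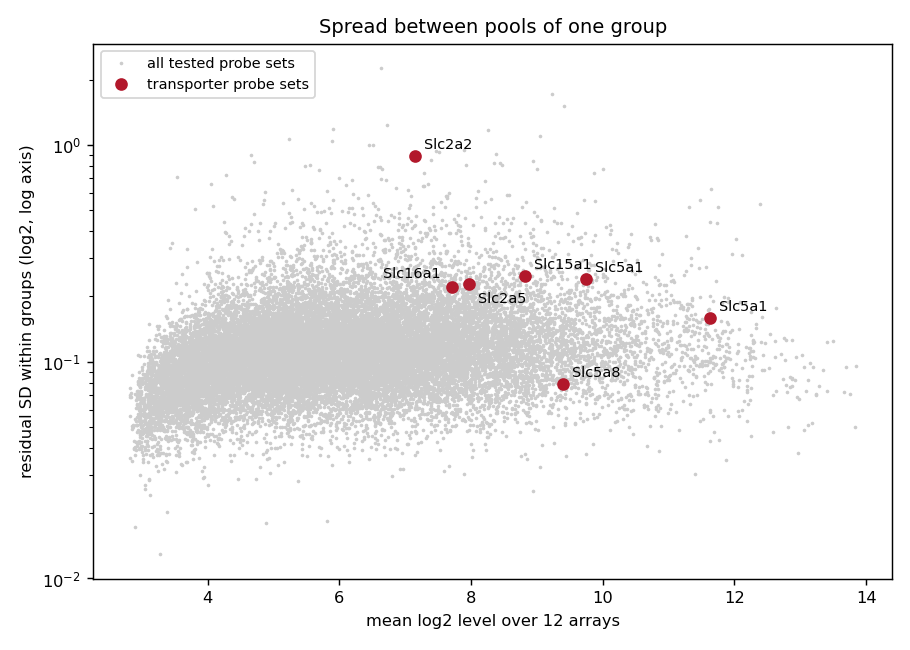
Residual SD within groups (log2, log axis) against mean log2 level over 12 arrays for all 22626 tested probe sets (grey) and the 7 transporter probe sets (red). Slc2a2 lies near the top at 0.89, Slc5a8 at 0.08 lies below the median of 0.11, and the others lie between 0.16 and 0.25.

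The spread between pools differed among the transporters in the same way. The residual SD of Slc5a8, 0.08, lay at the 13.7th percentile of the probe sets in its quartile of brightness. Those of Slc16a1, Slc2a5, Slc15a1 and the second Slc5a1 probe set, 0.22 to 0.25, lay between the 91.0th and 93.6th percentile of the same quartile, where the median was 0.12. This sets how small a difference each comparison could show: the SE of a difference between a pair of groups was 0.08 for Slc5a8 and 0.56 for Slc2a2.

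The genes around these transporters were read from lists of sugar transport, sugar digestion and metabolism, peptide and amino acid absorption, monocarboxylate handling, ion gradients and transcriptional regulators. No listed gene passed limma's adjusted threshold in the 4 comparisons between groups. Of 13 other sugar transporters, 6 were higher and 7 lower on quercetin in POR-null, and 2 higher and 11 lower on quercetin in wild type. Over all 12393 genes, 56.1% and 42.7% were higher in these comparisons. For POR-null against wild type the shares were 55.9% on quercetin and 43% on control. At an unadjusted p under 0.05 the only one of the 13 in the 4 comparisons was Slc2a3, a neuronal-type glucose transporter. Its genotype difference on quercetin was -0.16 (limma adjusted p = 0.687). In that comparison 7.01% of all probe sets reached such a p, and 6.65% to 10.9% in the other comparisons. Among 18 genes of sugar digestion and metabolism, 6 had an unadjusted p under 0.05 on the higher side and 2 on the lower for POR-null on the control diet, where 10.1% of all probe sets did in either direction. On quercetin 1 did on the higher side and 3 on the lower (7.01% of all probe sets), and the signs were positive for 5 of the 18 and negative for 13 (median -0.06). Txnip, a glucose-responsive inhibitor of glucose uptake, averaged 10.10 in POR-null and 9.66 in wild type on control (0.45 ± 0.10, limma adjusted p = 0.266). Pyruvate kinase Pklr differed by 0.47 ± 0.12 and fructose bisphosphatase Fbp1 by 0.42 (limma adjusted p = 0.305 and 0.364). Lactase, Lct, averaged 8.94 on quercetin and 8.17 on control in POR-null mice (0.78 ± 0.34, limma adjusted p = 0.727), against 9.01 on quercetin and 9.21 on control in wild-type mice. Lactase is also on the proximal list, and 6 of that list's 7 genes were lower in POR-null on control, with a median of -0.83, while on quercetin 5 of 7 had the higher mean in POR-null (median 0.13). Among the wild-type controls behind the first of these, replicate 2 scored 0.99 on that list and replicates 1 and 3 scored 0.06 and 0.00.

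Among 19 genes of peptide and amino acid absorption, 13 were higher in POR-null mice on each diet. The medians of the 19 were 0.10 on quercetin and 0.11 on control. Of all genes 55.9% were higher on quercetin and 43% on control. At an unadjusted p under 0.05, 2 of the 19 were higher and 1 lower on quercetin (7.01% of all probe sets). On control 4 were higher and 1 lower (10.1%). The neutral amino acid transporter Slc6a20a differed by 0.41 ± 0.12 and the cystine transporter subunit Slc7a9 by 0.31 ± 0.11 on control (limma adjusted p = 0.341 and 0.391). Of 16 monocarboxylate genes, 9 were lower in POR-null on quercetin and 13 on control. At an unadjusted p under 0.05, 0 of these 16 were counted on quercetin and 3 on control, all on the lower side. Slc16a3, the lactate exporter MCT4, averaged 6.03 in POR-null and 6.64 in wild type on control (-0.61 ± 0.21, limma adjusted p = 0.386), and Ldha, a lactate dehydrogenase subunit, differed by -0.23 ± 0.10. Bsg, the partner of MCT1, differed by -0.17 ± 0.08 on quercetin in POR-null and by -0.03 ± 0.08 in wild type (limma adjusted p = 0.741 and 0.904). Of 20 regulators, 10 were higher and 10 lower in POR-null on control (median 0.01). At an unadjusted p under 0.05, 3 were higher and 1 lower there, where 10.1% of all probe sets reached that. Among the 20, the bile acid receptor Nr1h4 averaged 8.63 in POR-null and 8.05 in wild type on control (0.58 ± 0.12, limma adjusted p = 0.224). The intestinal homeobox gene Cdx1 differed by 0.37 ± 0.12. Of 14 ion gradient and scaffold genes, 1 had an unadjusted p under 0.05 on quercetin in POR-null, where 6.65% of all probe sets did. It was the SLC4 bicarbonate cotransporter Slc4a4, at -0.30 ± 0.10 (limma adjusted p = 0.691).

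For each transporter the genes with the most similar profile over the 12 arrays were taken by Pearson's r among 6130 genes, as a description with no test. Slc2a2 was closest to Hsd17b6, a steroid dehydrogenase (r = 0.919), Leap2, a secreted peptide of liver and gut (0.882), and Slc3a2, the heavy chain of amino acid exchangers (0.881). Slc2a5 was closest to Vopp1 (0.868), Tef (0.866) and the brush border aminopeptidase Anpep (0.841). Slc5a1 was closest to Mrfap1 (0.868), Dapk3 (0.810) and Flad1 (0.807). Slc15a1 was closest to Idi1, an enzyme of isoprenoid synthesis (0.872), the aquaporin Aqp3 (0.842) and Pcyt2 (0.836). Slc16a1 was closest to Atp5l, an ATP synthase subunit (0.937), Cmpk2 (0.899) and Fam210b (0.883). Slc5a8 was closest to Zdhhc9 (0.881), the lysosomal protease gene Lgmn (0.878) and Rabac1 (0.870). After subtracting group means, the coefficients of Zdhhc9 and Lgmn with Slc5a8 were 0.463 and 0.450, while that of Rabac1 was 0.827. The 3 coefficients of Slc2a2 stayed between 0.904 and 0.953 after that subtraction.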

How the data were processed

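Expression was measured on 12 Affymetrix 430A arrays of ileal RNA. The authors deposited 1 value per probe set and array, with 2 decimals and no stated scale, and these deposited values were taken as log2 from their range and near-equal quantiles. MAS5 and RMA appear in the submitters' processing notes without a role, and how arrays were normalized is not given in the sources used here. The values ran from 2.66 to 14.04 and were used as deposited. The 64 control probe sets among 22690 were dropped. Gene names came from the platform annotation, and the 7 transporter probe sets matched RefSeq's gene table (GRCm38.p6) by gene ID. Where a gene had several, the brightest stood for it.

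Two-sided tests came from limma 3.58.1 (R 4.3.3), whose lmFit and eBayes used 1 coefficient for each of the groups and all 12 arrays. There were 8 residual degrees of freedom and 5.59 from the prior. The scripts were tested on simulated data. The transporters and gene lists were chosen with earlier results of these data known. All probe sets of the 6 genes are reported, up to 4 genes of each list with the smallest p were eligible to be named, and 3 similar genes per transporter were named, from genes at or above the median level and leaving out Gm and Rik symbols. Correlations used exact permutation within groups. Figures used Python 3.11.15 and matplotlib 3.10.9. Arrays were not treated as paired by the replicate numbers in the labels. Deviations from group means correlated above 0.1 in 3 of 18 same-numbered pairs of arrays (r from -0.18 to 0.16). They did so in 3 of 36 pairs with other numbers (r from -0.22 to 0.17). With 3 arrays per group this check cannot show whether the numbers mark a shared batch. Replicates are separate pools of 3 mice. The number of arrays limits the precision.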

Additional observations from a re-analysis of the deposited data

How the results depend on the processing

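No transporter probe set passed in any comparison under any of the 22 alternatives, adjusted p under 0.1 included. The 49 differences (7 probe sets in 7 comparisons) kept their sign throughout for 32, and all 7 with an unadjusted p under 0.05 were among these. The genotype difference of Slc5a8 on control ran from 0.34 to 0.45 with adjusted p never below 0.121, and that of Slc15a1 on quercetin from 0.36 to 0.59, never below 0.410. No alternative moved the median of all probe sets by more than 0.05.

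Counts over all probe sets moved. For quercetin in wild type, 1 became 7 without the dimmest quartile or with trend and robust, 5 with the replicate block, 2 with only the arrays compared, 13 at 0.1, 0 with gene means, and 1 to 59 leaving out arrays. The 59 arose without wild-type control replicate 1, as did the highest counts of 15 for the control-diet genotype effect and 9 for the interaction. The control-diet genotype count (0) was 1 with trend and robust and 0 to 15 leaving out arrays. The quercetin-diet count (0) was 5 with trend and robust, 2 with the replicate block or only the arrays compared, and 0 to 1 leaving out arrays. The interaction (0) had 2 with trend and robust or at 0.1, 3 with the replicate block, and 0 to 9 leaving out arrays. The average quercetin effect (0) had 2 with median centring or at 0.1, 1 without the dimmest quartile, with trend and robust or with array weights, and 0 to 1 leaving out arrays. The average genotype effect (0) had 4 with trend and robust or array weights, 2 with the replicate block or at 0.1, and 0 to 6 leaving out arrays, the 6 without wild-type control replicate 2. The causes were not tested. The replicate block changed no call of a transporter.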

Other observations

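Other peptide transporters of the SLC15 family were on the list of peptide absorption genes. Slc15a4, a lysosomal peptide and histidine transporter, averaged 5.14 on quercetin and 5.43 on control in POR-null mice, and 5.38 on quercetin and 5.14 on control in wild-type mice. The difference of these effects was -0.53 ± 0.11 (log2, SE; limma adjusted p = 0.241), which did not pass. Slc15a2, the high-affinity peptide transporter best known from kidney, ran the other way, with a quercetin difference of 0.25 ± 0.09 in POR-null and -0.19 ± 0.09 in wild type. The difference of these effects was 0.44 ± 0.13 (limma adjusted p = 0.373), which did not pass either. For the interaction, 1 of the 19 listed genes was higher and 1 lower at an unadjusted p under 0.05 (10.3% of all probe sets).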
